A study of Gallus gallus with 16 samples.

Results

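WT1, GATA4, NR5A1, NR0B1, EMX2, LHX9 and LHX2 are transcription factors of the early gonad, and their transcript levels were followed in chicken embryos of both sexes late in incubation. They were taken by gene symbol from a table of 14074 genes, and each of the 7 symbols matched 1 Ensembl gene. NR5A1 (ENSGALG00000001080) and LHX2 (ENSGALG00000001124) are listed on chromosome 17, NR0B1 (ENSGALG00000016287) on chromosome 1, EMX2 (ENSGALG00000009302) on chromosome 6, WT1 (ENSGALG00000012115) on chromosome 5, GATA4 (ENSGALG00000016662) on chromosome 3 and LHX9 (ENSGALG00000002223) on chromosome 8.

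Female and male gonads were taken on embryonic day 19, shortly before hatching, and measured by SuperSAGE, which reads 1 short tag beside the NlaIII cutting site nearest the 3' end of each transcript. The groups were tributyltin, an organotin given at 10 pg tin per g of body weight, sesame oil, methyltestosterone, an androgen given at 30 pg per g of body weight, and no substance, each in females and in males. The labels describe 16 libraries, 1 for each sex, side and substance, with RNA pooled from 10 individuals per group, and name no strain and no vehicle for tributyltin or methyltestosterone. The values used here are 8 columns, 1 per sex and substance, in which left and right gonads had been joined.

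The gonadal ridge forms as a thickening of the coelomic epithelium beside the mesonephros. In mice, loss of WT1, NR5A1, EMX2, LHX9 or GATA4 function stops the ridge from growing or keeping its cells, and NR5A1 later switches on steroid-making enzymes and, with SOX9, AMH. NR0B1 has no DNA-binding domain of the usual kind and represses NR5A1, and LHX2 is a LIM homeobox relative of LHX9. In female birds the left gonad becomes the ovary and the right one regresses, so a joined value mixes gonads of different fate.

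Depth differed widely between columns. The untreated and methyltestosterone columns held 1953798 to 6669049 tags and the oil and tributyltin columns 314810 to 508095, so that 1 tag was worth 0.150 to 0.512 RPM (tags of a gene scaled to a common total) in the first set and 1.97 to 3.18 RPM in the second. The summed level of 9 Sertoli cell markers was 1278 to 7162 RPM in females and 7229 to 11935 RPM in males, and most of it was AMH (6774 RPM in the female methyltestosterone column, the highest of the females). Not all of the list was higher in males. FSHR was higher in the female column of each substance (149 to 270 RPM against 118 to 223 RPM). PTGDS was higher in females in untreated (278 against 26.1 RPM) and methyltestosterone columns (98.0 against 20.8 RPM). It was slightly lower in females in oil (22.2 against 26.4 RPM) and tributyltin columns (28.3 against 31.5 RPM). SOX9 was at 0 to 30.8 RPM in females and 47.2 to 322 RPM in males, whereas DMRT1 overlapped between the sexes. In oil columns DMRT1 was at 6.35 RPM in the female and 4.06 RPM in the male one, both under a floor of 3 tags (9.53 and 6.09 RPM). It was higher in males in untreated (66.0 against 9.56 RPM), methyltestosterone (49.0 against 31.1 RPM) and tributyltin columns (15.7 against 0 RPM). The summed level of 8 granulosa cell markers was 324 to 512 RPM in females and 134 to 245 RPM in males, of which NR0B1 made 81.2 to 143 RPM in males. CYP19A1 (28.7 to 118 against 0 to 11.1 RPM) and RSPO1 (28.7 to 88.9 against 1.02 to 8.25 RPM) were higher in females. BMP2 was higher in the male column of each substance (11.8 to 31.5 against 3.18 to 11.7 RPM in females). WNT4 was higher in males in untreated and oil columns and higher in females in the others. FOXL2 was at 0 in the female tributyltin column. Markers of neighbouring tissues were also present and were higher in females. The summed level of 7 adrenal markers was 410 to 1180 RPM in females and 51.2 to 379 RPM in males. Most of it was CHGA, CHGB, PNMT, TH and DBH, genes of chromaffin cells. CYP21A2, a steroid enzyme of the adrenal cortex, was at 0 to 9.53 RPM, and SLC18A1 at 0 to 0.434 RPM. The sum of 9 mesonephros and kidney markers was 1887 to 3280 RPM in females and 266 to 632 RPM in males, with PAX2 at 0 in all 8 columns. The sum of 6 surface epithelium and mesothelium markers was 628 to 985 RPM in females and 144 to 237 RPM in males, with MSLN at 0 in every female column. The sum of 5 red blood cell markers was 9860 to 16659 RPM in females and 2886 to 6891 RPM in males, with SLC4A1 at 0 in all 8 columns.

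By mean level the 7 factors fell into an abundant and a rare group. NR5A1 averaged 310 RPM over the 8 columns and ranked 447 by mean level among the 14074 genes. NR0B1 followed at 118 RPM, EMX2 at 76.3 RPM and WT1 at 46.4 RPM. LHX9 averaged 2.71 RPM, GATA4 2.33 RPM and LHX2 0.227 RPM. Because each transcript gives 1 tag, these levels need no length correction, although they depend on which tags were assigned to each gene. The lowest NR5A1 column (216 RPM) lay above the highest NR0B1 column (177 RPM). The ranges of NR0B1 (81.2 to 177 RPM) and EMX2 (7.72 to 177 RPM) overlapped, as did those of EMX2 and WT1 (9.84 to 91.0 RPM), and those of LHX9 (0 to 7.87 RPM) and GATA4 (0 to 12.7 RPM). Thus NR5A1 and NR0B1 stood apart, as did WT1 and LHX9, whose lowest and highest columns were 9.84 and 7.87 RPM, and the other neighbours in this order overlapped. By single columns the abundant and the rare group met. The highest GATA4 column (12.7 RPM) lay above the lowest WT1 (9.84 RPM) and EMX2 (7.72 RPM) columns, and the highest LHX9 column (7.87 RPM) above the lowest EMX2 column.

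NR5A1, the nuclear receptor also called SF-1, is the factor through which gonad and adrenal cortex make steroids. It stood at 231, 226, 250 and 216 RPM in the female tributyltin, oil, methyltestosterone and untreated columns, against 339, 292, 518 and 407 RPM in the male columns of the same substances. Every male value lay above every female value, as for 3.53% of the 9280 genes tested below. The female columns varied little around their mean (231 ± 14.3 RPM, SD, n = 4 columns), while the male columns ranged more widely (389 ± 97.9 RPM, SD, n = 4 columns), and both SDs include any effect of substance. By tags alone the female level was 0.532 times the male level in untreated gonads (exact conditional 95% interval 0.474 to 0.595) and 0.483 times after methyltestosterone (0.447 to 0.522). The ratio was 0.684 after tributyltin (0.524 to 0.887) and 0.772 after oil (0.572 to 1.03), where the interval included 1. These intervals, like the others on tags, cover counting error only.

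NR0B1, also called DAX1, is the repressor of NR5A1. Its levels were 97.7, 105, 177 and 143 RPM in the female tributyltin, oil, methyltestosterone and untreated columns, against 88.6, 81.2, 143 and 106 RPM in the male ones. The female value was the higher of the pair for all 4 substances, but the ranges of the sexes overlapped. The female-to-male ratio was 1.35 in untreated gonads (exact 95% interval 1.13 to 1.61) and 1.23 after methyltestosterone (1.11 to 1.37), and the intervals included 1 after tributyltin (ratio 1.10, 0.697 to 1.74) and oil (1.29, 0.789 to 2.10). Set against NR5A1 in the same column, NR0B1 gave 0.422, 0.465, 0.706 and 0.659 tags per NR5A1 tag in the female tributyltin, oil, methyltestosterone and untreated columns. In males it gave 0.262, 0.278, 0.277 and 0.260 tags per NR5A1 tag, and the sexes did not overlap. NR5A1, the denominator, did not itself overlap between the sexes. WT1 per NR5A1 tag did not overlap either (0.178 to 0.364 in females, 0.0291 to 0.164 in males). EMX2 per NR5A1 tag did overlap (0.0333 to 0.708 in females, 0.0349 to 0.285 in males). The share of all genes without overlap in such a ratio was not counted. The NR0B1 ratio was chosen after the values were seen, and none of these ratios carries a test.

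WT1, a zinc finger factor that also marks mesothelium and the podocytes of the kidney, was at 41.2, 50.8, 91.0 and 59.5 RPM in the female tributyltin, oil, methyltestosterone and untreated columns. In the matching male columns it was at 9.84, 16.2, 36.4 and 66.5 RPM. The female column was the higher one after tributyltin, oil and methyltestosterone and the lower one in untreated gonads. The female-to-male ratio was 4.18 after tributyltin (exact 95% interval 1.46 to 14.6), 3.13 after oil (1.26 to 8.45) and 2.50 after methyltestosterone (2.10 to 2.97), against 0.895 without substance (0.699 to 1.15). The male tributyltin and oil values rested on 5 and 8 tags.

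EMX2, a homeobox factor of the gonadal ridge, urinary tract and forebrain, showed the largest ratio of highest to lowest column among the 4 abundant factors. It was at 7.72, 47.6, 177 and 104 RPM in the female tributyltin, oil, methyltestosterone and untreated columns and at 11.8, 22.3, 147 and 92.1 RPM in the male ones. All 4 tributyltin and oil columns lay below all 4 methyltestosterone and untreated columns, as for 12.5% of the 9280 genes tested below. The sexes overlapped widely, and the female column was the lower of the pair after tributyltin and the higher for the other substances.

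**Figure D1:**
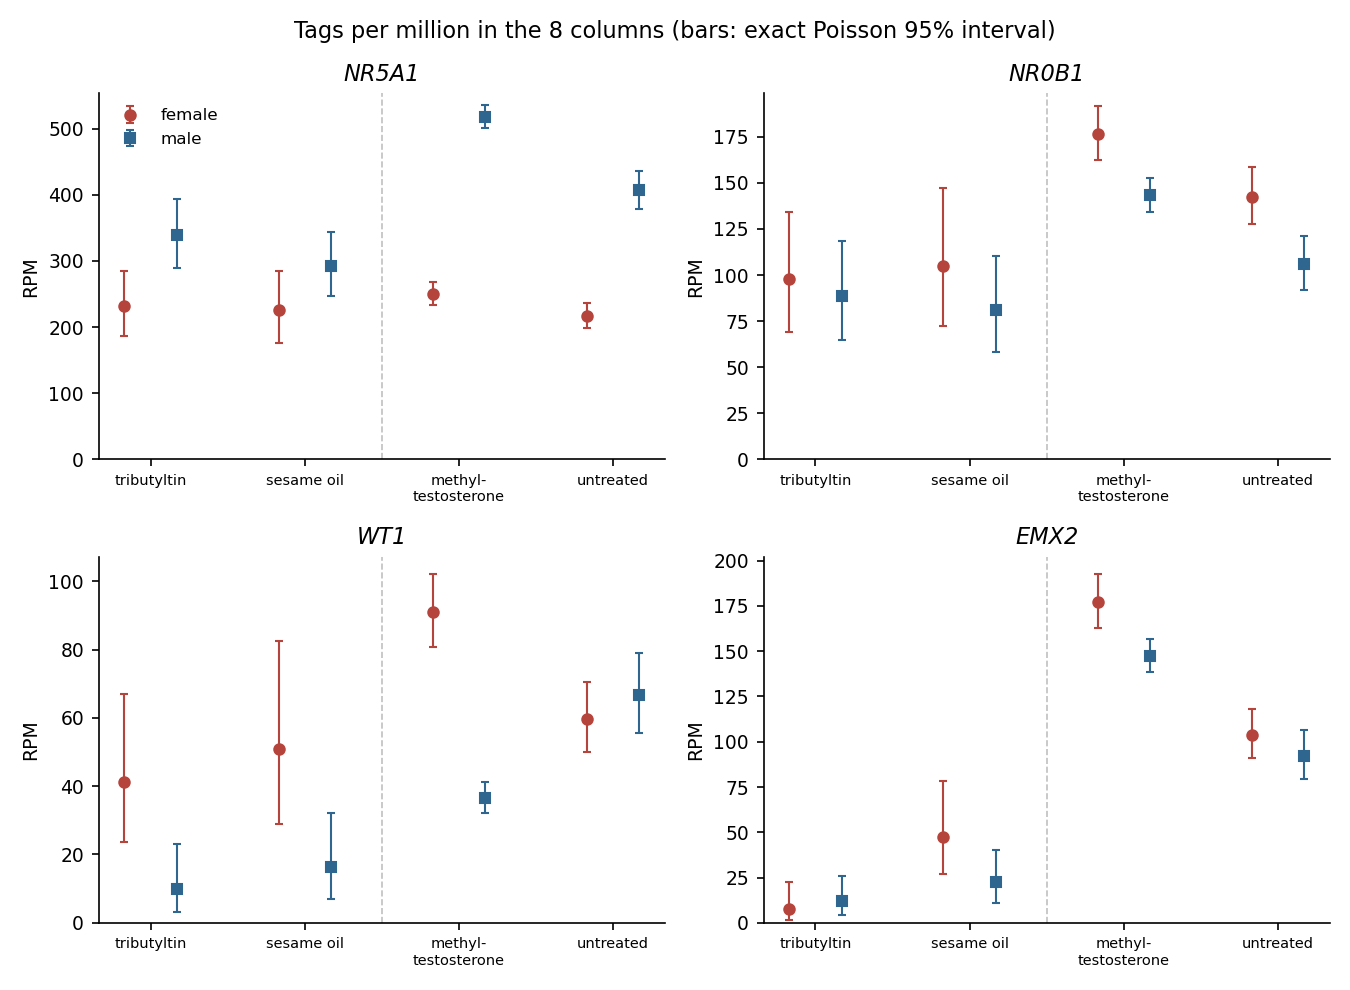
Levels of NR5A1, NR0B1, WT1 and EMX2 in RPM (linear axes from 0) in the 8 columns, circles for females and squares for males, with exact Poisson 95% intervals as bars and a dashed line between the shallow and the deep columns. NR5A1 in females (216 to 250 RPM) lies below all male columns (292 to 518 RPM), and EMX2 in tributyltin and oil columns (7.72 to 47.6 RPM) lies below the other 4 (92.1 to 177 RPM). Of the 9280 tested genes, 3.53% are lower in every female column and 12.5% in every oil and tributyltin column.

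GATA4, a zinc finger factor that binds beside NR5A1 at the promoter of AMH in mammals, was read by 30 tags in all. It had 0, 12.7, 1.58 and 1.30 RPM in the female tributyltin, oil, methyltestosterone and untreated columns, against 0, 0, 2.55 and 0.512 RPM in the male ones. The value of 12.7 RPM was 4 tags (exact Poisson 95% interval 3.46 to 32.5), and this interval overlapped that of the 0 tags in the male oil column, which reached 7.49 RPM. The exact conditional 95% interval of the female-to-male ratio after oil began at 1.03. That of tributyltin over oil in females ran from 0 to 1.23, and both rest on these 4 tags. LHX9, a LIM homeobox factor that activates Nr5a1 together with WT1 in mice, was also read by 30 tags. It had 0, 0, 1.90 and 2.17 RPM in the female tributyltin, oil, methyltestosterone and untreated columns and 7.87, 6.09, 1.05 and 2.56 RPM in the male ones. Summed over tributyltin and oil, LHX9 gave 0 tags in females, which allows up to 4.26 RPM at a floor of 3 tags over both columns, against 7 tags in males (exact Poisson 95% interval 2.81 to 14.4 RPM). The exact Poisson 95% upper limit for these females was 5.24 RPM, so the intervals of the sexes overlapped. Summed over methyltestosterone and untreated columns LHX9 gave 2.02 RPM in females (1.01 to 3.61) and 1.39 RPM in males (0.719 to 2.43), and the intervals overlapped there too. LHX2, known in mice for roles in brain, eye and hair follicle, gave 8 tags in all, with 0.634 and 0.434 RPM in the female methyltestosterone and untreated columns and 0.750 RPM in the male methyltestosterone column. It was at 0 in the other 5 columns. Over the 4 tributyltin and oil columns together 0 tags allow up to 1.76 RPM at a floor of 3 tags (exact Poisson 95% upper limit 2.16 RPM). Both limits lie above the level of the untreated and methyltestosterone columns (0.568 RPM), so the 0 tags do not show a lower level. In the RefSeq gene order (assembly GRCg7b) LHX2 and NR5A1 lie on chromosome 17 with 3 protein-coding genes between them (NEK6, PSMB7 and ADGRD2).

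**Figure D2:**
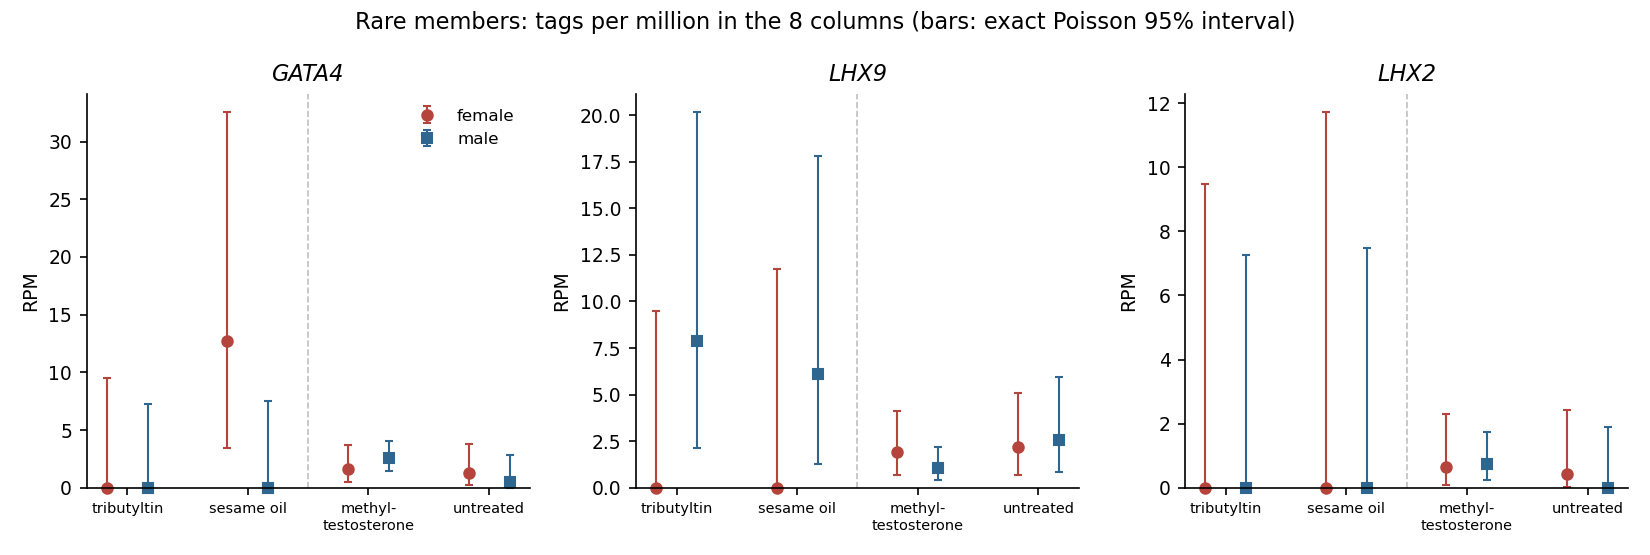
Levels of GATA4, LHX9 and LHX2 in RPM (linear axes from 0, a separate scale for each gene) in the 8 columns, circles for females and squares for males, with exact Poisson 95% intervals as bars. The highest values, 12.7 RPM for GATA4 and 7.87 RPM for LHX9, are 4 tags each, and the intervals of most columns overlap.

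The sex difference was tested over all 8 columns with limma on log2(RPM + 1), with substance as a further term, for the 9280 genes that had at least 1 RPM in at least 4 columns. WT1, GATA4, NR5A1, NR0B1, EMX2 and LHX9 passed this filter and LHX2 did not. NR5A1 was lower in females, with a log2 difference of -0.72 (limma with Benjamini-Hochberg adjusted p = 0.0455, SE 0.18), which is a level 0.608 times that of males. It was the 1 gene of the 6 that was called, where 5.96% of all tested genes were called, 3.67% higher and 2.28% lower in females. The groups did not overlap for NR5A1, as for 8.8% of all tested genes, 5.27% with every female column higher and 3.53% with every female column lower. Of all tested genes, 12.5% had a lower log2 difference than NR5A1. The call was a narrow one. Within the untreated and methyltestosterone columns alone the log2 difference was -0.98 (limma adjusted p = 0.0140), while the 4 oil and tributyltin columns by themselves gave -0.46 (limma adjusted p = 0.481). Leaving out any 1 of the 8 columns lost the call (limma adjusted p from 0.0528 to 0.224, log2 difference from -0.83 to -0.61), while edgeR and DESeq2 on the recovered tags kept it (adjusted p = 0.00170 and 0.00135).

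WT1 did not pass in the sex comparison. Its log2 difference was 1.17 (limma adjusted p = 0.104, SE 0.37), higher in females for 3 of 4 substances. Within the untreated and methyltestosterone columns it was 0.57 (limma adjusted p = 0.340), and within the oil and tributyltin columns 1.77 (limma adjusted p = 0.416). NR0B1 had a log2 difference of 0.31 (limma adjusted p = 0.455, SE 0.19, 95% interval -0.12 to 0.73) and EMX2 one of 0.23 (limma adjusted p = 0.744, SE 0.31, 95% interval -0.44 to 0.91). GATA4 (0.98, 95% interval -0.60 to 2.57) and LHX9 (-1.41, 95% interval -2.99 to 0.17) had wide intervals that included 0. Of the markers of neighbouring tissues, 5 of 6 tested adrenal genes, 5 of 7 mesonephros and kidney genes, 2 of 4 surface epithelium genes and 4 of 4 red blood cell genes were higher in females by the same test. The share called higher over all tested genes was 3.67%. These gene lists, like those further on, were chosen with earlier results of these data known. PODXL, the podocyte surface protein, was at 1512 to 2265 RPM in females and 244 to 564 RPM in males. The part of these tissues in the WT1 and NR5A1 values was not tested. In joined bulk gonads, fewer cells of a type and less RNA per cell cannot be told apart.

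**Figure D3:**
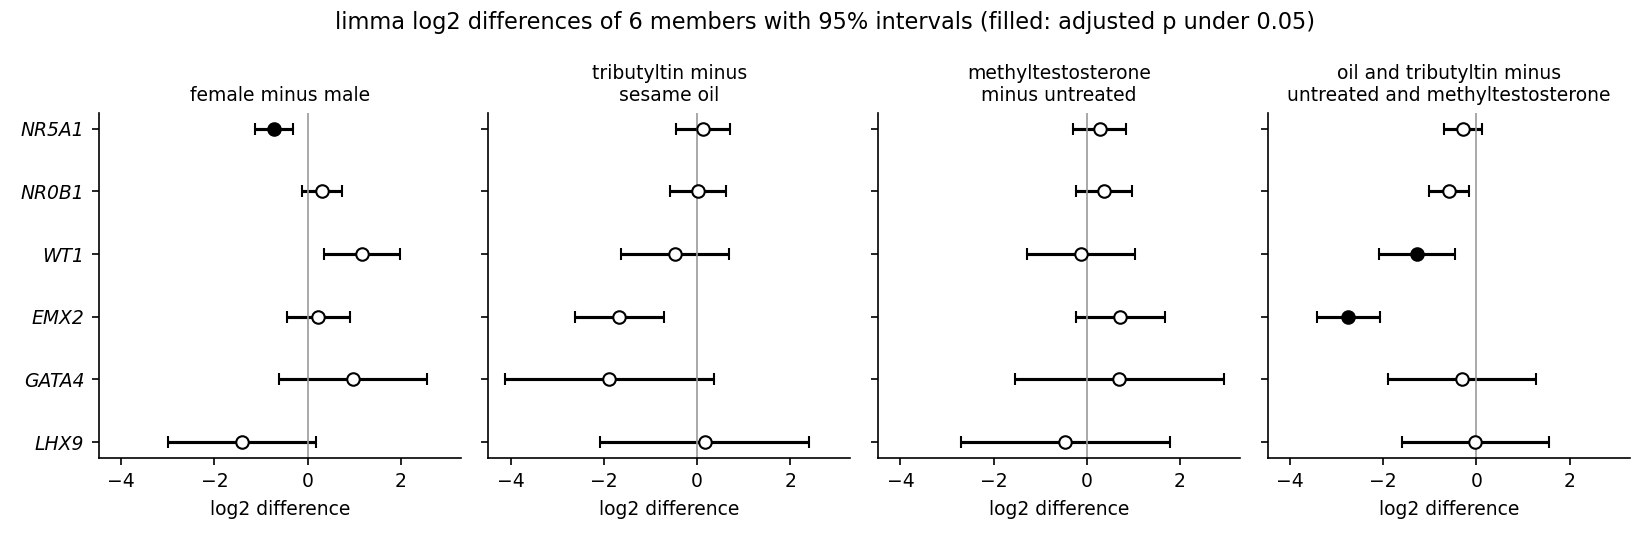
Log2 differences of 6 factors in 4 comparisons by limma (horizontal axes, log2 scale of RPM + 1), with 95% intervals as bars and filled points where the adjusted p is under 0.05. NR5A1 is filled for female minus male (-0.72), and EMX2 (-2.75) and WT1 (-1.28) are filled for oil and tributyltin minus untreated and methyltestosterone.

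Tributyltin was set against sesame oil, the group of similar depth, although the labels do not name oil as its vehicle. None of the 6 factors was called by limma, and 0.0% of all 9280 genes were called. At an unadjusted p under 0.05 limma had 991 genes, with EMX2 the 1 factor among them, and on recovered tags edgeR called 11 genes and DESeq2 called 2, again with none of the factors. EMX2 had the lowest of these values among the abundant factors, with a log2 difference of -1.67 (limma adjusted p = 0.294, SE 0.43, 95% interval -2.63 to -0.71), lower after tributyltin in both sexes. In females EMX2 had 3 tags after tributyltin and 15 after oil, a ratio of 0.162 (exact 95% interval 0.0301 to 0.572). In males it had 6 tags after tributyltin and 11 after oil, a ratio of 0.529 (0.161 to 1.56) whose interval included 1. The authors' deposited table gives p-values of 0.000992 for the female and 0.202 for the male pair of columns, from a test that is not stated, and in it 19.1% and 22.2% of the genes with a p-value lie under 0.05 for these pairs. NR5A1 (0.12, 95% interval -0.45 to 0.70) and NR0B1 (0.01, 95% interval -0.59 to 0.62) had log2 differences near 0. WT1 had a log2 difference of -0.48 (95% interval -1.64 to 0.68), with ratios of 0.810 in females (exact 95% interval 0.379 to 1.73) and 0.606 in males (0.156 to 2.10). GATA4 was at 0 in both tributyltin columns, where 0 tags allow up to 9.49 RPM in females and 7.26 RPM in males (exact Poisson 95% upper limits). These limits lie above the GATA4 levels in the untreated and methyltestosterone columns (0.512 to 2.55 RPM). LHX9 had a log2 difference of 0.16 (95% interval -2.08 to 2.40).

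Methyltestosterone was set against no substance because these columns resemble each other in depth. The labels name no vehicle, so an effect of one, oil included, cannot be told apart from that of the androgen here. Methyltestosterone against oil was not fitted, and like oil against untreated it crosses the shallow and deep columns. Limma called 32 genes (0.345%), 21 higher and 11 lower after methyltestosterone, and none of the 6 factors was called or had an unadjusted p under 0.05, as 9.21% of all tested genes had. The split was 20 higher and 19 lower with median-of-ratios scaling, and 258 higher and 284 lower with edgeR on the recovered tags. DESeq2 called 323 genes, and neither count tool called any of the factors. EMX2 had a log2 difference of 0.72 (limma adjusted p = 0.733, SE 0.43) and was higher after methyltestosterone in both sexes, 177 against 104 RPM in females and 147 against 92.1 RPM in males. NR0B1 had one of 0.37 (limma adjusted p = 0.828, SE 0.27), with 177 against 143 RPM in females and 143 against 106 RPM in males. NR5A1 had one of 0.28 (limma adjusted p = 0.894, SE 0.26), with ratios of 1.16 in females (exact 95% interval 1.03 to 1.30) and 1.27 in males (1.18 to 1.38). For all 3 the methyltestosterone column was the higher one in each sex, and by counting error alone the ratio intervals of all 3 lay above 1. The share of all genes higher in both sexes was not counted, and these intervals allow for no scaling between columns. The median log2 difference of all tested genes was 0.10. A lower log2 difference than that of EMX2 was seen in 84.3% of tested genes, against 67.5% for NR0B1 and 62% for NR5A1. LHX9 was lower after methyltestosterone in both sexes (log2 difference -0.46, 95% interval -2.70 to 1.78). GATA4 was higher in both (0.70, 95% interval -1.54 to 2.94), and both genes rest on few tags.

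For WT1 the ratios after methyltestosterone lay on opposite sides of 1 in the sexes. In females it was at 91.0 RPM after methyltestosterone and 59.5 RPM without it, a ratio of 1.53 (exact 95% interval 1.24 to 1.89). In males it was at 36.4 RPM after methyltestosterone and 66.5 RPM without it, a ratio of 0.548 (0.441 to 0.683). These values rest on 130 to 287 tags per column. The authors' deposited table gives a p-value of 3.84e-05 for the female and 1.85e-08 for the male pair, where 41.8% and 36.1% of the genes with a p-value lie under 0.05. With 1 column per sex and substance the difference between the sexes has no replicate and was not tested, and the joint log2 difference of WT1 was -0.12 (limma adjusted p = 0.997, SE 0.52).

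Sesame oil against no substance asks what the oil alone changed, but it compares shallow with deep columns, so that oil and depth cannot be told apart. Limma called 590 genes (6.36%, with 2.77% higher and 3.59% lower after oil) and none of the 6 factors. EMX2 was the 1 factor at an unadjusted p under 0.05, where 25.4% of all tested genes were. EMX2 came closest, at 47.6 against 104 RPM in females and 22.3 against 92.1 RPM in males, with a log2 difference of -1.55 (limma adjusted p = 0.0597, SE 0.43). On recovered tags edgeR and DESeq2 called it (adjusted p = 0.00487 and 0.0156). Without the male oil column its log2 difference was -1.0 (limma adjusted p = 0.160), and without the female oil column it was -2.10 (limma adjusted p = 0.0391). The other factors had log2 differences of -1.10 for WT1 (limma adjusted p = 0.218), -0.41 for NR0B1 and -0.21 for NR5A1, and wide intervals for GATA4 (-1.25 to 3.23) and LHX9 (-2.57 to 1.90).

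The columns form 2 sets, oil with tributyltin and untreated with methyltestosterone, and a comparison of these sets was added after the values had been seen. EMX2 was lower in the oil and tributyltin columns by a log2 difference of -2.75 (limma with Benjamini-Hochberg adjusted p = 0.000360, SE 0.31), a level 0.149 times that of the untreated and methyltestosterone columns. It was called in all 16 alternatives, with log2 differences from -3.02 to -2.47. Summed over columns, EMX2 gave 35 tags or 20.5 RPM after oil and tributyltin (exact Poisson 95% interval 14.3 to 28.6), against 1961 tags or 139 RPM in the untreated and methyltestosterone columns (133 to 146). WT1 was lower too, by -1.28 (limma adjusted p = 0.0341, SE 0.37). These were 2 of the 6 factors, where 20.8% of all tested genes were called, 6.82% higher and 14.0% lower in the oil and tributyltin columns. EMX2 and NR0B1 did not overlap between the sets, as 19.5% of all tested genes did not, 7.03% being higher and 12.5% lower in every oil and tributyltin column. The median log2 difference of all tested genes was -0.30, and -0.21 with median-of-ratios scaling. Of all tested genes, 1.55% had a lower log2 difference than EMX2, 15.4% a lower one than WT1 and 37.4% a lower one than NR0B1.

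The WT1 call between the sets held in 9 of 16 alternatives. It was lost with no filter and with no mean trend. It was also lost without the male untreated column (log2 difference -0.83, limma adjusted p = 0.223), without either methyltestosterone column, and without the male oil or male tributyltin column (limma adjusted p from 0.0640 to 0.223 over these 5). NR0B1 was at 81.2 to 105 RPM in the oil and tributyltin columns and at 106 to 177 RPM in the others, with a log2 difference of -0.59 (limma adjusted p = 0.0540, SE 0.19). NR5A1 had one of -0.28 (limma adjusted p = 0.296, SE 0.18), GATA4 one of -0.31 (95% interval -1.89 to 1.28) and LHX9 one of -0.02 (95% interval -1.61 to 1.56). Other genes of gonad cells differed in both directions between the sets. The granulosa factor FOXL2 was at 0 to 3.18 RPM in the oil and tributyltin columns and at 18.4 to 126 RPM in the others, while STAR, the carrier of cholesterol into mitochondria, was at 44.7 to 133 RPM in oil and tributyltin columns and at 1.02 to 39.0 RPM in the others. The substances of a set, its depth and anything else its libraries share cannot be told apart.

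**Figure D4:**
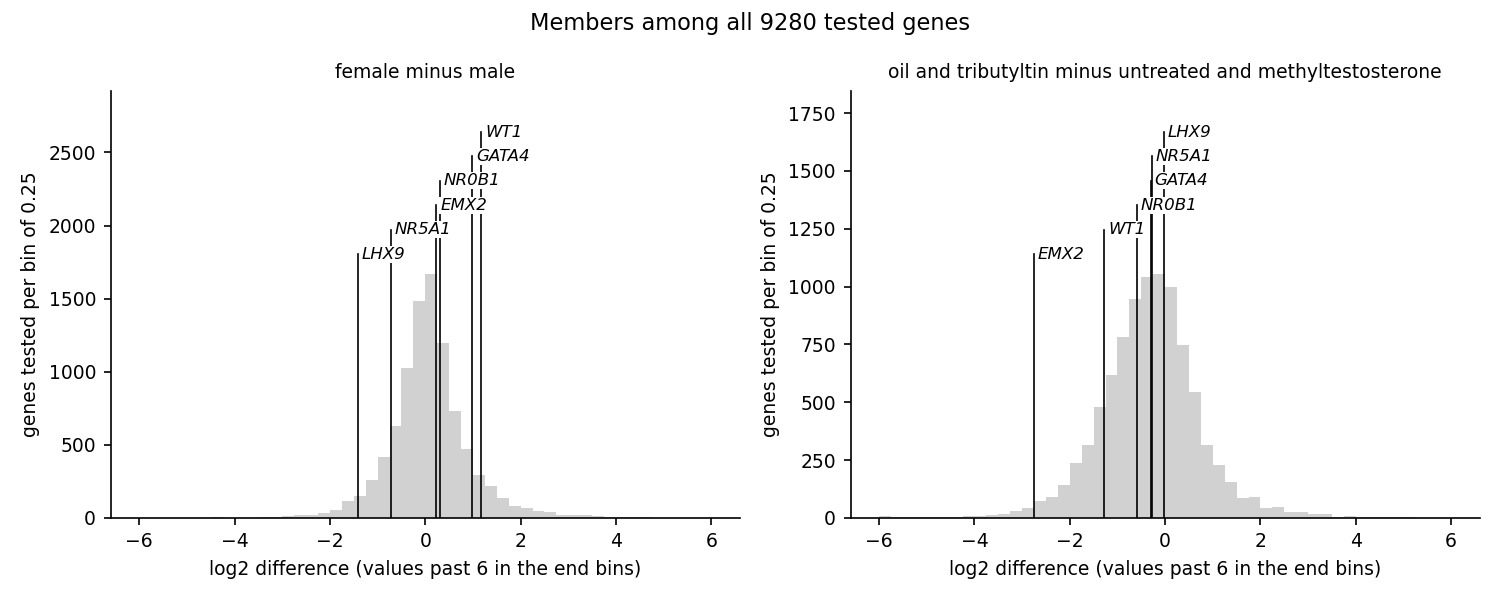
Distribution of log2 differences of all 9280 tested genes (grey bars, number of genes per bin of 0.25) for female minus male and for oil and tributyltin minus untreated and methyltestosterone, with vertical lines at the 6 tested factors. NR5A1 (-0.72) has 12.5% of the genes below it in the first panel and EMX2 (-2.75) has 1.55% below it in the second.

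Whether the sex difference itself differed between the sets was tested with an interaction term. Limma called 1 gene of 9280 (0.0108%) and none of the factors, edgeR on recovered tags called 17 genes and DESeq2 called 5, none of them a factor, and 600 genes (6.47%) had an unadjusted limma p under 0.05, with LHX9 the 1 factor among them. LHX9 had the largest interaction of the 6 in size, with a log2 difference of -3.16 (limma adjusted p = 0.736, SE 0.91), but its sex difference in the oil and tributyltin columns rests on 7 tags in males and 0 in females. NR5A1 had an interaction of 0.52 (limma adjusted p = 0.739, 95% interval -0.18 to 1.22) and WT1 one of 1.20 (limma adjusted p = 0.739, 95% interval -0.34 to 2.75). Leaving out any 1 oil or tributyltin column gave 1289 to 2095 calls, with LHX9 called each time (limma adjusted p from 0.00318 to 0.00672) and GATA4 called without either tributyltin column, and these fits leave 1 residual degree of freedom.

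Among 15 tested other factors of the gonadal ridge, 2 were higher and 1 was lower in females (3.67% and 2.28% of all tested genes), with a median log2 difference of 0.16 against 0.06 for all tested genes. NR5A2, the closest relative of NR5A1, was at 6.35 to 20.6 RPM in females and 79.8 to 120 RPM in males, with a log2 difference of -3.27 (limma adjusted p = 0.00107, SE 0.36). It was lower in females for all 4 substances, like NR5A1 and by a larger step. Its lowest male value lay above its highest female value, as for 3.53% of all tested genes. GATA2, a GATA family member known from blood and endothelium, was at 40.6 to 54.0 RPM in females and 4.06 to 15.4 RPM in males (log2 difference 2.36, SE 0.44, limma adjusted p = 0.0114). OSR1, a factor of intermediate mesoderm and kidney, was at 16.1 to 38.1 RPM in females and 0 to 7.20 RPM in males (log2 difference 3.51, SE 0.69, limma adjusted p = 0.0142). Between the sets 1 of the 15 was higher and 2 were lower in oil and tributyltin columns (6.82% and 14.0% of all tested genes). NR2F2, a nuclear receptor of mesenchyme and steroidogenic precursors, was at 18.0 to 58.9 RPM in oil and tributyltin columns and 4.35 to 7.93 RPM in the others (log2 difference 2.30, limma adjusted p = 0.00752). TCF21, a basic helix-loop-helix factor of gonadal and kidney mesenchyme, was at 43.3 to 101 RPM against 129 to 277 RPM (log2 difference -1.45, limma adjusted p = 0.00169). ZFPM1, a cofactor of GATA proteins, was at 0 to 3.18 RPM against 7.82 to 22.8 RPM (limma adjusted p = 0.00423). GATA6, a GATA factor of the same list, had no tag in any column.

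Of 13 tested genes known as targets of NR5A1, 2 were higher and 4 lower in females, where 3.67% and 2.28% of all tested genes were, with a median log2 difference of 0.15 against 0.06 for all tested genes. SOX9 (log2 difference -4.23), AMH (-2.25) and HSD3B2 (-1.03) were lower in females, as NR5A1 was, and CYP19A1, the aromatase (4.77), was higher, each with a limma adjusted p between 0.00161 and 0.00500. HSD3B2, a dehydrogenase of steroid synthesis, was at 454 to 734 RPM in females and 817 to 1594 RPM in males. CYP17A1, the gene of the list with the highest mean, was at 9208 to 12122 RPM in females and 7917 to 11817 RPM in males. Between the sets 3 of the 13 were higher and 3 lower in oil and tributyltin columns (6.82% and 14.0% of all tested genes), STAR, LHCGR and HSD3B2 against RGN, SOX9 and SCARB1, while NR5A1 itself was not called. Of 10 tested cofactors and targets of WT1, 2 were higher in females and none lower (3.67% and 2.28% of all tested genes), PODXL (log2 difference 2.32, limma adjusted p = 0.000190) and the kidney factor SALL1 (2.76, limma adjusted p = 0.00388), with a median of 0.41 over the 10. PODXL also stands among the kidney markers. Between the sets 3 of these 10 were lower in oil and tributyltin columns, where 14.0% of all tested genes were, namely WTAP, a WT1-binding protein that works in RNA methylation, PODXL, and KDR, an endothelial receptor, with a median of -0.88 over the 10 against -0.30 for all tested genes.

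By sex, 5.96% of all tested genes were called. None of 5 tested LIM homeobox relatives and cofactors and none of 6 tested corepressors and relatives of NR0B1 was called. LDB2, a cofactor of LIM factors, was at 79.6 to 189 RPM in females and 65.0 to 223 RPM in males, and ALYREF, a coregulator also called ALY, at 220 to 322 RPM in females and 214 to 387 RPM in males. Between the sets LMO4, a LIM-only protein, was higher in oil and tributyltin columns, at 10.2 to 57.2 RPM against 6.08 to 8.25 RPM (limma adjusted p = 0.0242), and none of the relatives of NR0B1 was called. Of all tested genes, 6.82% were higher and 14.0% lower in these columns. Of 4 tested GATA relatives and cofactors, GATA2 was higher in females (3.67% of all tested genes) and ZFPM1 was lower in oil and tributyltin columns (14.0%). For tributyltin against oil and for methyltestosterone against untreated no gene of any of these lists was called by limma. Of all tested genes, 0.0% and 0.345% were called there. In these comparisons TCF21 had log2 differences of -0.81 (limma adjusted p = 0.378) after tributyltin and 0.97 (limma adjusted p = 0.272) after methyltestosterone.

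The markers of other cells were counted between the sets as well, where 6.82% of all tested genes were higher and 14.0% lower in oil and tributyltin columns. In oil and tributyltin columns 3 of 8 tested Sertoli markers (CLDN11, SOX9 and DMRT1), 1 of 7 granulosa markers (FOXL2), 3 of 6 adrenal markers (PNMT, CHGA and TH) and 3 of 7 mesonephros and kidney markers (SLC34A1, PODXL and LRP2) were lower and none of these lists had a higher one. Of 6 tested steroidogenic markers 3 were higher, of 4 surface epithelium markers KRT19 was higher and KRT8 lower, and none of 7 germ cell or 4 red blood cell markers was called. The summed level of adrenal markers was 51.2 to 766 RPM in oil and tributyltin columns and 87.9 to 1180 RPM in the others, and that of mesonephros and kidney markers 266 to 1903 RPM against 607 to 3280 RPM. By sex, where 3.67% of all tested genes were higher and 2.28% lower in females, 1 of 6 steroidogenic markers was higher and 1 lower in females, 5 of 8 Sertoli markers were lower, 2 of 7 granulosa markers were higher, and of 7 germ cell markers KIT was lower. The part of any of these cells in the EMX2 and WT1 values was not tested.

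The genes whose levels followed each abundant factor most closely over the 8 columns were found among 4856 genes that had a symbol and averaged 20 RPM or more, by Pearson r of log2(RPM + 1). This is a description over columns that share libraries and depth, with no test. NR5A1 was followed by PIP5K1B (r = 0.946), AZI1 (0.940) and MME (0.937), all higher in males. PIP5K1B, a lipid kinase gene on the Z chromosome, was at 105, 88.9, 106 and 129 RPM in the female tributyltin, oil, methyltestosterone and untreated columns and 191, 140, 290 and 209 RPM in the male ones. NR0B1 was followed by COL14A1 (0.984), FAM177A1 (0.972) and TRAPPC8 (0.971). COL14A1, a collagen, was at 602, 546, 1379 and 1009 RPM in those female columns and 482, 449, 1133 and 669 RPM in the male ones, highest after methyltestosterone and lowest after oil in both sexes. WT1 was followed by the alpha tubulin TUBA3E (0.980), RGMA (0.962), a membrane-anchored co-receptor for BMPs, and TBCD (0.958), a tubulin folding cofactor. EMX2 was followed by PREB (0.992), VAMP3 (0.986) and UBE2E3 (0.985), and PREB was at 2.57, 28.6, 117 and 76.0 RPM in the female columns and 3.94, 14.2, 121 and 91.6 RPM in the male ones. None of the 4 abundant factors was among the 3 genes, out of 4856, most like another of them. GATA4, LHX9 and LHX2 averaged under 20 RPM and were not candidates.

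**Figure D5:**
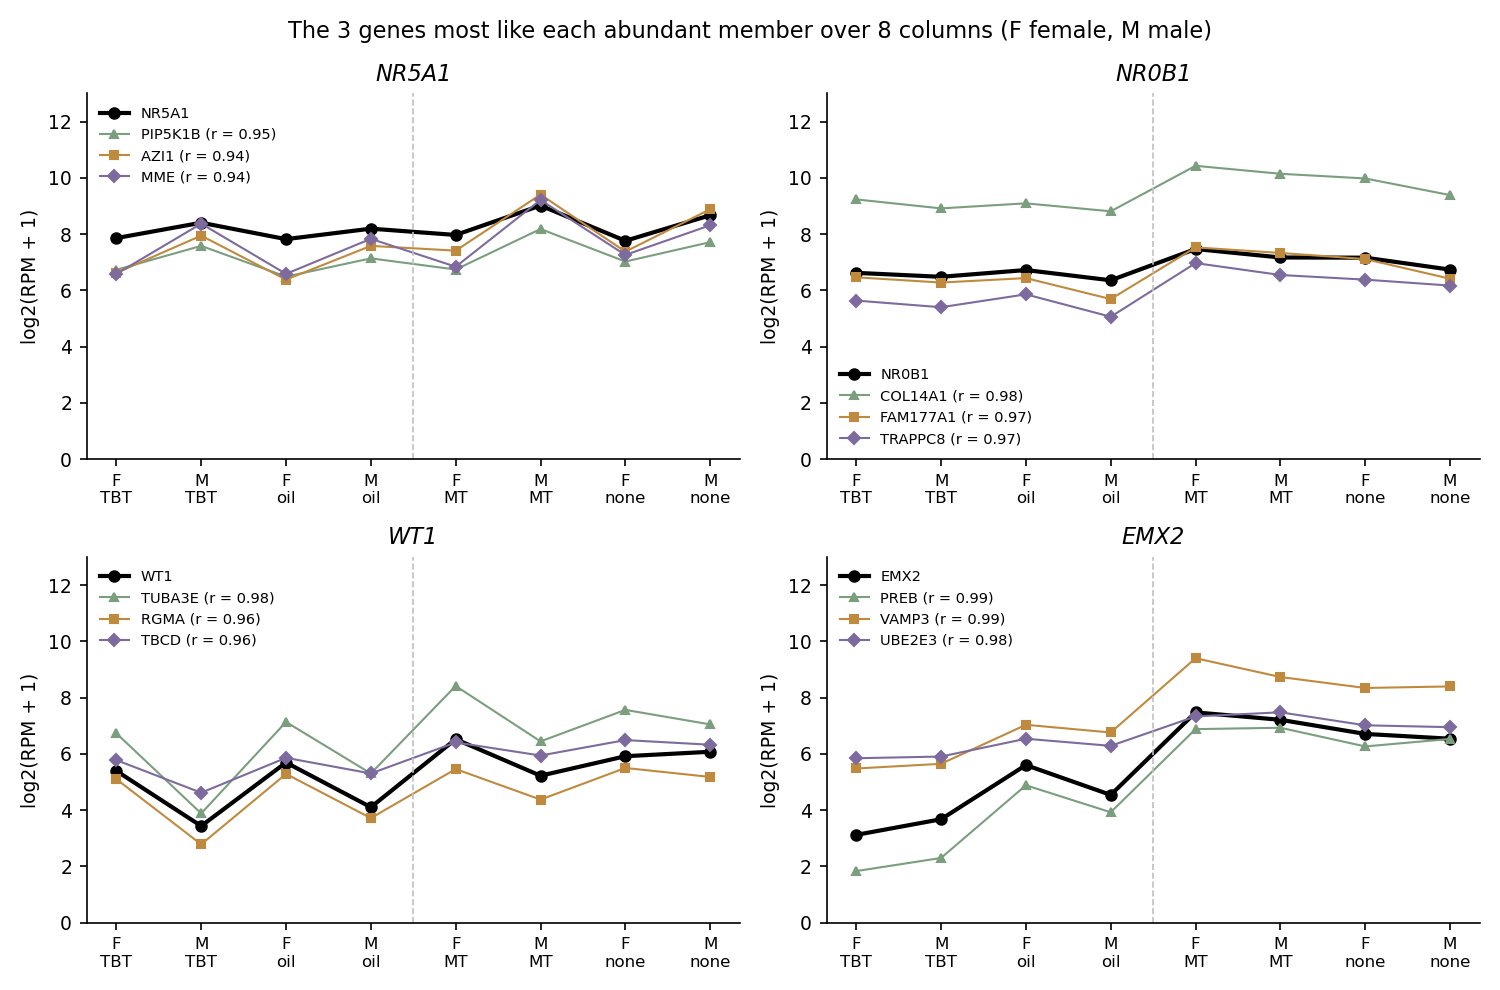
Levels on a log2(RPM + 1) axis of NR5A1, NR0B1, WT1 and EMX2 (black) and of the 3 genes with the highest Pearson r to each, in the 8 columns (F female, M male, TBT tributyltin, oil sesame oil, MT methyltestosterone, none untreated). NR5A1 and its likes alternate with sex, whereas EMX2, PREB, VAMP3 and UBE2E3 are low in the 4 columns left of the dashed line.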

How the data were processed

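Gonads were pooled by group, and 16 SuperSAGE libraries were described. Per the submitters' processing notes Novoalign and galGal4 were used. Versions, the assignment of tags to genes and the use of strand are not given in the sources used here. The authors deposited RPM (tags scaled to a common total) of 14074 genes in 8 columns that join left and right, in a way that is not stated, with 0.05 written for no tag and read here as 0. Divided by the worth of 1 tag, 100% of values came out whole to within 0.01, which gave the tags of each column. The deposited table also holds p-values that the authors gave each gene in 12 comparisons of columns, and 14 columns of ratios that were not used. A count test had been planned for raw counts. As the values are RPM, limma 3.58.1 with a trended empirical Bayes prior (R 4.3.3) was fitted to log2(RPM + 1) over the 8 columns with sex and substance as additive terms, for the 9280 genes reaching 1 RPM in 4 or more columns (additive fit: 3 residual degrees of freedom, prior 7.39). Fold changes on this scale understate those of low genes. The interaction fit had 2 residual degrees of freedom and 4.46 prior ones. Called means an adjusted p under 0.05 by Benjamini-Hochberg over all tested genes of a comparison, and every adjusted p in the text is of this kind. Each sex and substance is 1 column and nothing says that columns are separate experiments, so that p-values reflect nothing but how columns scatter about the additive fit, which may be technical. The fits were repeated with a pseudocount of 0.5 or 5, with no filter, with genes averaging 20 RPM or more, with median-of-ratios scaling and with no mean trend, by edgeR 4.0.16 and DESeq2 1.42.0 on the recovered tags, on either set of columns, and with each column left out. Ratios between 2 columns have exact conditional 95% intervals and levels exact Poisson ones. No molecular identifiers are described, tags may repeat a molecule, and the intervals cover counting error only, and 0 was read against a floor of 3 tags. The scripts were tested on simulated data. The factors and gene lists were chosen with earlier results of these data known. Named genes were all 7 factors, the 3 genes most like each factor of at least 10 RPM, and up to 4 called genes of each list per comparison, or its 2 most abundant genes where none was called. RefSeq (GRCg7b) was used only for gene order, since its build differs from galGal4.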

Additional observations from a re-analysis of the deposited data

Results flagged for a closer look

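GATA4 in the female oil column, at 12.7 RPM, stood apart from the other 3 female columns (0 to 1.58 RPM) and from the other 3 oil and tributyltin columns (0 RPM). The gap was 0.875 of the range of the female columns and all of the range of the oil and tributyltin columns. With the other 3 at 0, any value above 0 gives the latter. The value is 4 tags. LHX2 was at 0.750 RPM or 5 tags in the male methyltestosterone column, the deepest one, and at 0 in the other 3 male columns. It was flagged because any value above 0 is then apart by all of the range. The 0 tags of the male untreated, oil and tributyltin columns allow up to 1.89, 7.49 and 7.26 RPM (exact Poisson 95% upper limits), all above 0.750 RPM. The limit used for such gaps is one that about 1 of 20 groups passes by chance, a rate that was not checked for values of so few tags.

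WT1 was 1.53 times its untreated level after methyltestosterone in females and 0.548 times in males, so the sexes differed in direction. With 1 column per sex and substance this difference was not tested.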

How the results depend on the processing

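Left and right gonads could not be paired, because the columns join them and carry no replicate numbers. The fit by sex has substance as a term, so it compares the female and male columns of each substance as pairs. Leaving out either column of a substance therefore gave the same log2 difference by sex (NR5A1 -0.66 without the female or the male untreated column). Omissions within a pair are thus not separate checks of that difference. For females against males, 193 genes were called with no filter, 170 with no mean trend, 1027 by edgeR, 1014 in the untreated and methyltestosterone columns alone and 0 in the oil and tributyltin columns alone (1076 at an unadjusted limma p under 0.05), against 553. NR5A1 was lost, leaving 0 factors called, with a pseudocount of 0.5 (limma adjusted p = 0.0532), no filter (0.113), no mean trend (0.262) and in the oil and tributyltin columns alone (0.481). The log2 difference of LHX9 was 0.17 in the untreated and methyltestosterone columns alone. Tributyltin against oil gave 1 gene with a pseudocount of 5 or a mean of 20 RPM, 11 by edgeR and 2 by DESeq2, and the log2 difference of NR0B1 was -0.043 with median-of-ratios scaling, -0.042 by DESeq2 and -0.050 by edgeR. Methyltestosterone against untreated gave 19 genes with a pseudocount of 0.5, 60 with 5, 0 with no filter or no mean trend, 80 with a mean of 20 RPM, 542 by edgeR and 323 by DESeq2. Oil against untreated gave 203 genes with no filter, 189 with no mean trend, 1252 by edgeR and 912 by DESeq2, and 1 factor (EMX2) with a pseudocount of 5, a mean of 20 RPM, edgeR or DESeq2. Between the sets 1101 genes were called with no mean trend, and 1 factor with no filter or no mean trend but 3 with a mean of 20 RPM. The interaction gave 0 genes with a pseudocount of 0.5, no filter or no mean trend, 3 with a mean of 20 RPM, 17 by edgeR and 5 by DESeq2. The causes were not tested.

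Leaving out 1 column gave 216 to 444 genes and 0 factors by sex, 0 to 49 genes and 0 factors for tributyltin against oil, and 0 to 49 genes and 0 factors for methyltestosterone against untreated. It gave 53 to 1068 genes and 0 to 1 factors for oil against untreated, 713 to 2574 genes and 1 to 2 factors between the sets, and 0 to 2095 genes and 0 to 2 factors for the interaction. By the same omissions log2 differences changed sign for EMX2 by sex (-0.040 to 0.50, lowest without an oil column). For tributyltin against oil they did so for WT1 (-1.01 to 0.042), NR5A1 (-0.11 to 0.35) and NR0B1 (-0.099 to 0.12), for methyltestosterone against untreated for WT1 (-1.01 to 0.76) and for oil against untreated for NR5A1 (-0.44 to 0.022), and none of these was called in any of these fits. Rare factors rest on few tags, and 1 tag was worth 1.97 to 3.18 RPM in the oil and tributyltin columns.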
